A study of Mus musculus with 16 samples.

Results

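Broad H3K27Ac domains are long, unbroken stretches of chromatin that carry acetylation of histone H3 at lysine 27, and 679 of them were found among the 15757 H3K27Ac peaks of resting Des+/+ adult cardiomyocytes. A peak was taken as a domain when it was at least 2500 bp wide and its height in the input DNA stayed below 10 reads. The members were thus chosen by width and input height in the Des+/+ basal library, and both are given here as descriptions. The domains made up 4.31% of the peaks of that library and 13.2% of their summed width, 2.27 of 17.2 Mb. Only 1 further peak was wide enough and was left out for its input height.

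The study followed desmin, the muscle intermediate filament that ties the sarcomeres to the nucleus and the cell borders, and asked how its loss changes active chromatin in the heart. H3K27Ac and lamin A/C were immunoprecipitated from cardiomyocytes isolated from 3-month-old mice. The comparison was between 4 groups with 1 H3K27Ac library each: Des+/+ and Des-/- mice, either without exercise (basal) or after a swimming exercise stress (swim). The 4 H3K27Ac lists held 15757 (Des+/+ basal), 16638 (Des-/- basal), 11157 (Des+/+ swim) and 10407 (Des-/- swim) peaks. Mice of both genotypes carried the αMHC-GFP transgene, in which the cardiac Myh6 promoter drives GFP, on a 129SV background, and desmin was missing from every cell of the Des-/- animals and not from cardiomyocytes alone. Each library came from chromatin of several mice of 1 genotype and condition, so that the spread between animals was not measured. No replicate stood behind any value, no difference between libraries was tested, and every interval given below covers counting error only. Reads copied by PCR are not independent molecules, so these intervals are too narrow even for that.

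H3K27Ac is placed by the acetyltransferases p300 and CBP on nucleosomes around active promoters and enhancers. Most acetylated sites are short. Long domains are known to gather at genes that a cell transcribes heavily, at genes that define its identity, such as those of the sarcomere and the cardiac transcription factors in heart muscle, and at genes that respond quickly to signals. Acetylation in a bulk preparation is the sum over all cells in it, so fewer cells of a type and less acetylation per cell cannot be told apart.

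The sequences of 6 stretches of genome are shown to make the regions concrete. Fos, Btg2 and Per1 are signal-responsive genes with a RefSeq start inside a domain that had a high peak in every library, and the 200 bases before that start are printed. For Per1 this start, at position 69100152, is not the one the annotation assigned, which lies 14 bp inside the upstream edge of the domain. Jph2, Slco3a1 and Nppb had a domain outside any promoter that was lost or low in Des-/- swim, and the 201 bases around its summit in Des+/+ basal are printed. All lie inside the domain named and come from the RefSeq GRCm38.p6 assembly, which is the C57BL/6J reference and not the sequence of the animals studied. Fos is on chr12:85473690-85473889 (plus strand), Btg2 on chr1:134079156-134079355 (minus strand), Per1 on chr11:69099952-69100151 (plus strand), Jph2 on chr2:163393114-163393314, Slco3a1 on chr7:74381627-74381827 and Nppb on chr4:147963353-147963553, the last 3 read on the plus strand. Capitals mark the motif matches listed after the sequences.
Fos promoter: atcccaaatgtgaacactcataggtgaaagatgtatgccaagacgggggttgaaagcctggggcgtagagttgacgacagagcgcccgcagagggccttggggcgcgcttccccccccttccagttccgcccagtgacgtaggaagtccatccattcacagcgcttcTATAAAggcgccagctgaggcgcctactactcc
Btg2 promoter: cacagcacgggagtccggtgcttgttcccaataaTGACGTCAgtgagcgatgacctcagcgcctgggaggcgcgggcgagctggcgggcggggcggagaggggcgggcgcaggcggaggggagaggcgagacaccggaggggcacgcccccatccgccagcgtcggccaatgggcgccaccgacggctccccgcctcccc
Per1 promoter: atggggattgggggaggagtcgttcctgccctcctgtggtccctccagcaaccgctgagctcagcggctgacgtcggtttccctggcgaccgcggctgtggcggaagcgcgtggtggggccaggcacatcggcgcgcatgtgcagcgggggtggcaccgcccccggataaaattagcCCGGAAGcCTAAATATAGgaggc
Jph2 intron: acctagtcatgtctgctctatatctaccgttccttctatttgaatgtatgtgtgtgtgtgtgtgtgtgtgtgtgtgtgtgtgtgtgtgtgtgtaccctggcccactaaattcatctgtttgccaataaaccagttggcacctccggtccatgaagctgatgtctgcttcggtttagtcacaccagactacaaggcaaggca
Slco3a1 intron: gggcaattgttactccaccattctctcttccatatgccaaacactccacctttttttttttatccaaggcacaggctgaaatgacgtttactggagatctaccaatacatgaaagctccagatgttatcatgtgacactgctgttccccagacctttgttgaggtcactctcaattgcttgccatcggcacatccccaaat
Nppb intergenic: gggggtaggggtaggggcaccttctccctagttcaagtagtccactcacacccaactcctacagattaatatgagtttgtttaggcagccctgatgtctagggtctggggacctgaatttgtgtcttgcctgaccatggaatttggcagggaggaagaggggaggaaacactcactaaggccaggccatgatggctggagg

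The capitals in Fos are a TATA box (TATAAA) that ends 28 bases before the start. In Btg2 they are a full cAMP response element (TGACGTCA), the site of CREB and ATF factors, from -166 to -159. In Per1 an ETS core (CCGGAAG) at -23 to -17 is followed by a MEF2 site at -15 to -6. The 3 windows outside promoters held no GATA factor site (AGATAA), MCAT element (CATTCC), AP-1 site (TGANTCA), CArG box or MEF2 match on either strand, and the Jph2 window holds a TG repeat. These are matches of letters, not measured binding.

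The domains were 2500 to 13922 bp wide, with a median of 3025 bp and quartiles of 2726 and 3592 bp, whereas the other 15078 peaks had a median of 864 bp. Their H3K27Ac height, the number of reads piled up at the summit, ran from 17 to 165, with a median of 45 and quartiles of 32 and 67, against a median of 22 in the other peaks. Height was not part of the rule. Many domains were long without being high, and the lowest height in any list was 15 reads. The input height was 1 to 8 reads in the domains, with a median of 3, the same as in the other peaks. The width limit cut through a continuous range of widths, since the 3 domains just inside it were nearest to Hes7 (2500 bp, 21 reads high), Coro6 (2501 bp, 36 reads) and Ube2r2 (2503 bp, 48 reads), and the 3 peaks just outside it, each 2498 bp wide, were nearest to Dhrs3 (25 reads), Rapgef5 (16 reads) and Etohd2 (83 reads).

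**Figure D1:**
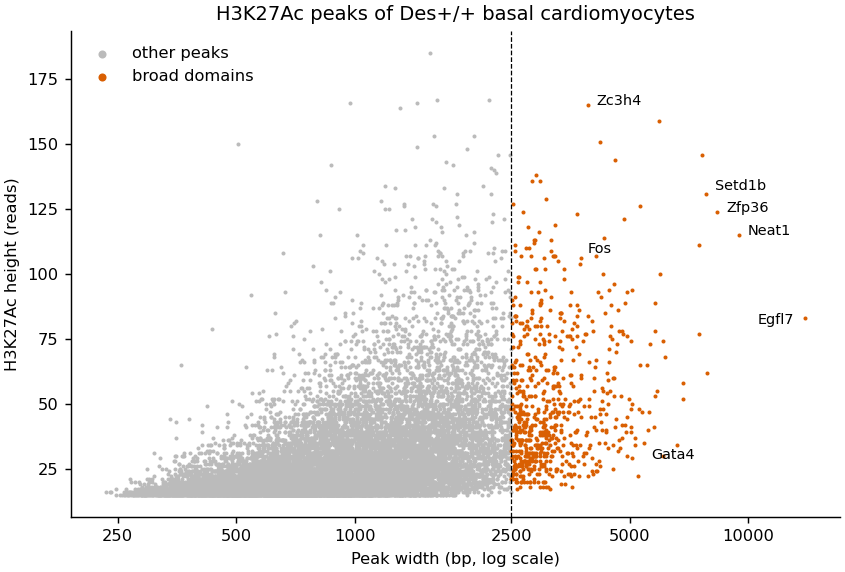
Width (bp, log scale) and H3K27Ac height (reads) of each of the 15757 Des+/+ basal peaks, with 1 point per peak. The dashed line is the 2500 bp limit, and the 679 domains to its right cover heights from 17 to 165, so that wide peaks are not all high ones.

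The widest domain, 13922 bp on chr2, covered Egfl7, which encodes a secreted factor of blood vessels and hosts a microRNA of endothelial cells. Its highest peak reached 83, 64, 51 and 46 reads in Des+/+ basal, Des-/- basal, Des+/+ swim and Des-/- swim, the order kept for every set of 4 heights below. Des+/+ basal had a single peak there, as in every domain by the rule, and the other 3 lists had 3, 6 and 5 pieces. Neat1, the long noncoding RNA that builds nuclear paraspeckles, followed with 9457 bp and heights of 115, 111, 87 and 100 reads. Zfp36, whose product speeds the decay of inflammatory mRNAs, came next with 8336 bp and heights of 124, 136, 85 and 87. None of these 3 is a gene of the sarcomere. Mir6516, a microRNA gene, had 7849 bp, the H3K4 methyltransferase gene Setd1b 7804 bp, the survival gene Mcl1 7625 bp, the AP-1 gene Fosl2 7510 bp, the glucose uptake inhibitor Txnip 6852 bp, Stum 6847 bp, the focal adhesion gene Tns1 6600 bp and the lipid transfer gene Pitpnc1 6145 bp. Among the widest domains named here, Pitpnc1 and Tns1 kept the least of their width after swim. Peaks of Des-/- basal, Des+/+ swim and Des-/- swim covered 66.4, 33.4 and 32.0% of the Pitpnc1 domain and 91.8, 56.8 and 63.3% of the Tns1 domain.

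The highest domain was at Zc3h4, a zinc finger gene that restrains transcription of noncoding RNA, with 165, 169, 119 and 131 reads. The next were assigned to the transcript 5031425E22Rik (159 reads), whose domain also holds the start of the chromatin regulator Kmt2e, and to Mir6935 (151 reads), whose domain holds the start of the cytoplasmic actin gene Actg1. Mcl1 (146 reads), the BAF complex gene Bicral (144), the RNA-binding protein genes Hnrnpa0 (138) and Pcbp1 (136), the stress-response factor Atf4 (136), Setd1b (131), the RNA helicase gene Ddx5 (129), Ewsr1 (127) and the microRNA gene Mir23a (126) completed the 12. Only Mcl1 and Setd1b were both among the 12 widest and the 12 highest. No domain of a sarcomere gene was among the 12 on either ranking.

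Of the 679 domains, 522 were annotated as promoter, that is within 3 kb of a transcript start, which is 76.9% (Wilson 95% interval 73.6 to 79.9). Among the other 15078 peaks the share was 66.2% (65.5 to 67.0), and the intervals did not overlap. Introns held 64 domains (9.43%, against 16.8% of the other peaks), intergenic sequence 53 (7.81%, against 11.6%), exons 31 (4.57%, against 3.91%) and UTRs 9 (1.33%, against 1.52%). A domain is wider than other peaks and so has more room to reach a start. At least 1 start of a protein-coding gene lay inside 66.1% of the domains and 47.3% of the other peaks. A single such start was inside 401 domains, 2 starts were inside 45 and 3 or more were inside 3, while 230 held none. On chromosome X there were 3 domains, at the deubiquitinase gene Usp9x, the RNA helicase gene Ddx3x and the thymosin gene Tmsb4x, or 0.442% (0.150 to 1.29) of the domains against 1.47% of all Des+/+ basal peaks.

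Domains at promoters leaned into the gene body. The start of the assigned transcript was inside 489 domains, and these reached a median of 1027 bp upstream and 2134 bp downstream of it. In 364 of them (74.4%) the downstream side was the longer one, and this share was 80.5% in the other peaks with a start inside. The summit lay a median of 250 bp downstream of the start, with quartiles of -242 and 624 bp. In the other peaks the median was 178 bp and the quartiles were 83 and 261 bp, so the summit of a domain was less tied to 1 distance from the start.

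The sequence under promoter domains was less rich in CpG than that of the other promoter peaks. The observed to expected CpG ratio had a median of 0.557 in promoter domains and 0.719 in the other promoter peaks, and the GC content was 54.8% and 58.8%. A wide region takes in more of the sequence that flanks a CpG island. In a window of fixed length, 250 bases before to 50 after each start, the medians lay closer together, at 0.782 for the 534 starts inside domains and 0.824 for the 7089 starts inside other peaks, against 0.384 for all 32851 promoters of the RefSeq table. Outside promoters the domains had a ratio of 0.249 and the other peaks one of 0.236.

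Motifs were counted in the same 300-base promoter windows, on both strands except for the TATA box. The ETS core CCGGAAG was in 9.93% of the windows at domains, 22.5% of those at other peaks and 8.86% of all promoters. The TATA box TATAAA was in 5.43, 3.54 and 8.32% of them, and the AP-1 site TGANTCA in 6.93, 3.95 and 7.81%. Promoters inside domains thus had fewer ETS cores and more AP-1 matches than promoters inside narrower peaks, with Wilson intervals that did not overlap, whereas those for the TATA box, 3.81 to 7.69% and 3.14 to 4.00%, did. The 534 starts inside domains belong to 433 genes, and windows of 1 gene can share sequence. The intervals count each window as independent and so are too narrow. For the E-box CACGTG the shares were 11.6, 9.90 and 7.15%, and for the cAMP response element TGACGTCA 2.81, 3.99 and 1.79%. CArG boxes were in 1.69, 1.35 and 1.63% and MEF2 sites in 3.00, 1.74 and 3.19%. The GATA site was in 5.62, 4.84 and 11.2% and the MCAT element of TEAD factors in 13.1, 11.1 and 14.7%.

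The domains were assigned to 593 nearest genes, 6.29% of the 9433 genes that had any Des+/+ basal peak, and 2 domains had no gene symbol. In 71 genes there were 2 or more domains, and in 14 there were at least 3. Ablim1, which encodes an actin-binding LIM protein, had 4, between 2940 and 5254 bp wide. Domains also came in runs. When neighbours no more than 12.5 kb apart were counted together, the 679 domains made 615 runs, of which 50 held more than 1 domain and 114 domains in all. There were 39 pairs, 9 triples, 1 run of 4 and 1 run of 5.

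The run of 5 spanned 27694 bp at Mcl1 and Adamtsl4 on chr3, with 22132 bp of domain, and peaks of Des-/- basal, Des+/+ swim and Des-/- swim covered 91.0, 85.8 and 82.5% of it. The run of 4, at Gm15441, Txnip and Polr3gl on the same chromosome, held 17976 bp of domain, covered at 91.7, 88.8 and 75.1%. These long runs stayed acetylated over most of their length in every library. Fli1, an ETS factor of endothelial and blood cells, had 3 domains within 25981 bp, and they were covered at only 61.0, 41.7 and 57.8%.

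Nearly every domain had at least 1 peak in each of the other 3 lists when an overlap of 1 bp was enough. The numbers were 678 for Des-/- basal (99.9%), 667 for Des+/+ swim (98.2%) and 654 for Des-/- swim (96.3%). Over all Des+/+ basal peaks, which are the background for these counts, the shares were 85.5, 61.0 and 57.1%. The Des+/+ basal list chose the domains and higher peaks are found again more often, so these shares describe the domains and are not a test. Among peaks of like height, between 32 and 67 reads, the difference was small: 100, 99.7 and 99.4% of 348 domains and 99.8, 97.3 and 94.9% of 3322 other peaks had a partner. A peak in all 3 other lists was present over 644 domains (94.8%) and over 44.7% of the other peaks.

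How much of a domain was covered varied more than whether it was found. Of all domain bases 89.6, 77.1 and 74.0% lay under peaks of the Des-/- basal, Des+/+ swim and Des-/- swim lists, the order of libraries for every set of 3 cover values below, and the other peaks were covered at 79.1, 52.6 and 50.6%. Against other peaks of like height the gap was small, with 90.5, 79.4 and 76.4% in the 348 domains and 91.5, 76.9 and 77.7% in the 3322 other peaks. At least 90% of the domain was covered in 421 domains of the Des-/- basal list, 223 after swim with desmin and 204 after swim without it. Less than 50% was covered in 15, 79 and 120 domains. The swim libraries covered less of the domains than Des-/- basal did, and the largest number of poorly covered ones was in Des-/- swim. The domains were chosen as wide peaks of Des+/+ basal, so their cover in other lists is a description and not a test. The swim lists also held less peak sequence as a whole, 10.9 Mb (Des+/+) and 10.4 Mb (Des-/-) against 17.2 Mb in Des+/+ basal.

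Domains were broken into pieces more often than other peaks. In the same order, 2 or more peaks lay over 219 (32.3%), 294 (43.3%) and 272 (40.1%) domains. For the other peaks these shares were 5.61, 4.99 and 4.43%. A long region offers more places for a gap, and this was not set against a length-matched group. The median summed width of the overlapping peaks was 3004, 2556 and 2536 bp, and their median highest peak 47, 32 and 36 reads. An overlapping peak of at least 2500 bp was present over 436 (64.2%), 242 (35.6%) and 233 (34.3%) domains. Over 118 domains (17.4%) such a peak with low input was present in all 3.

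**Figure D2:**
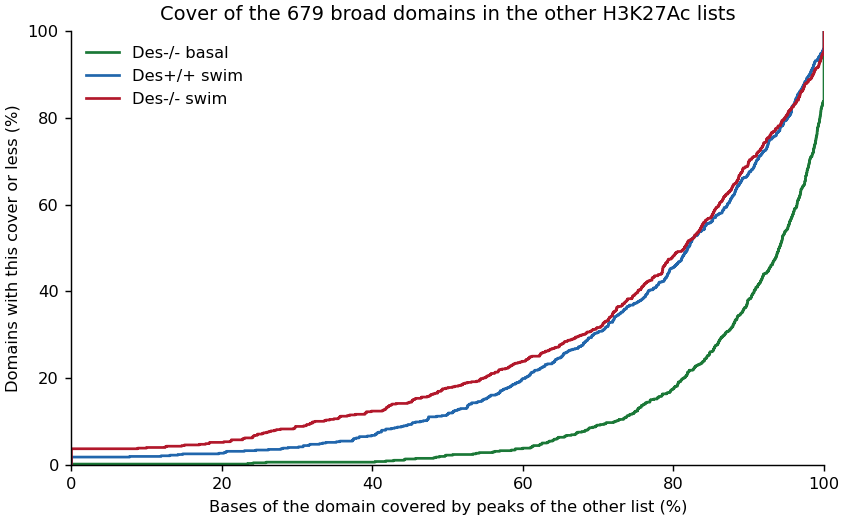
Cumulative share of the 679 domains (%) against the share of the domain's bases covered by peaks of each other H3K27Ac list (%), with 1 line per list. The Des-/- basal line stays lowest until close to full cover, and below about the middle of the range the Des-/- swim line lies above the Des+/+ swim line, with 120 and 79 domains covered at less than 50%.

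The same limits applied to the other libraries gave 724 domains for Des-/- basal, 309 for Des+/+ swim and 241 for Des-/- swim. Of these, 436 (60.2%), 245 (79.3%) and 189 (78.4%) overlapped a Des+/+ basal domain, and they touched 64.2, 35.6 and 28.6% of the 679. The fewer domains of the swim libraries lay mostly inside the set found at rest. In Des-/- basal the number was close to that in Des+/+ basal, while the exact regions past the width limit were partly others. Nearly all of them were acetylated in Des+/+ basal too. A Des+/+ basal peak of any width was met by 722 of the 724, all 309 and 239 of the 241.

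A single domain had no peak in Des-/- basal. It lay in an exon of Fli1 on chr9:32523786-32526559 (mm10) and was 27 reads high in Des+/+ basal. After swim it had 16 reads with desmin and 22 without.

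In Des+/+ swim 12 domains had no peak. The 10 widest of these were at Gm21057, Rapgef4 (a cAMP-activated exchange factor), Elk3 (an ETS factor of vessels), Pxdn (a matrix peroxidase), Lmo7, Aplnr (the apelin receptor), Cdh5 (VE-cadherin, the adhesion protein of endothelial junctions), Atf6b, Dach1 and Tmtc1. Their heights in Des+/+ basal ran from 18 reads at Aplnr and Tmtc1 to 41 reads at Dach1, all below the median of 45 over all domains. Dach1, a developmental transcription factor, had 26 reads in Des-/- basal and 16 in Des-/- swim.

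In Des-/- swim 25 domains had no peak. The 10 widest were at Jph2 (3559 bp), Map3k5, Schip1, Myl2 (3176 bp), Elk3, Pitpnm2, Zbtb7b, Ppp1r12b, Rab11fip5 and Fhl2 (3001 bp). Jph2 encodes junctophilin-2, which holds the T-tubule to the calcium store, Myl2 the ventricular regulatory light chain, Ppp1r12b a subunit of the myosin phosphatase and Fhl2 a LIM protein of the sarcomere. The Fhl2 domain had 39, 32 and 29 reads in the Des+/+ basal, Des-/- basal and Des+/+ swim lists. Myl2 had 30, 23 and 24 reads and Jph2 18, 18 and 15 in the same 3 libraries. The 25 were between 17 and 39 reads high in Des+/+ basal, again below the median of all domains. No listed peak is lower than 15 reads, so a region without one may still hold acetylation under that height. Elk3, Aplnr and Cdh5 were without a peak in both swim libraries. Of the 64 intron domains 10 had no peak in Des-/- swim, and 61.0% of their bases were covered, against 12 of 522 and 75.7% for promoter domains. Intron domains were already lower in Des-/- basal, with a median highest peak of 30.5 reads against 52 at promoters. Their cover there was 81.5% against 90.8%. The part of height in the difference between the classes was not tested.

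The comparison of Des-/- swim with Des+/+ swim asks how the hearts of the 2 genotypes differ after exercise, and the rule used neither library. For each domain the highest overlapping peak was compared. Of the 645 domains with a peak in both, 377 were higher and 232 lower in Des-/- swim, and the median ratio of Des-/- swim to Des+/+ swim was 1.06, with quartiles of 0.927 and 1.22. The median over all 7455 Des+/+ basal peaks with a partner in both was 1.11, so the domains stood slightly below the general shift. Relative to that median, 12 domains (1.86%) were at least 1.5-fold higher in Des-/- swim, where 4.23% of all peaks were, and 33 (5.12%) were at least 1.5-fold lower, where 4.61% of all peaks were. A peak present in Des+/+ swim was missing in Des-/- swim at 22 of 667 domains (3.30%), against 22.4% of all peaks, and 9 domains had a peak in Des-/- swim only. Among the 3322 other peaks between 32 and 67 reads high, only 130 had a peak in Des+/+ swim and none in Des-/- swim. Their median ratio was 1.14, farther above that of the domains. Of those with a partner in both, 4.80% were at least 1.5-fold higher and 3.42% at least 1.5-fold lower. Promoter domains had a median ratio of 1.08 and those outside promoters one of 1, and 14 of 140 (10.0%) of the latter were at least 1.5-fold lower.

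Input moved with this comparison. In the input, peaks had a mean height of 2.96, 2.80, 3.06 and 5.48 reads in the 4 lists, the last being Des-/- swim, and the median over domains was 5 reads in Des-/- swim and 3 in each other list. With height divided by input height, 1 read being added to both, the median ratio over domains was 0.678, below 1. Whether Des-/- swim stood above or below Des+/+ swim across the domains as a whole therefore depended on how height was measured. The part of the higher input in any single ratio was not tested.

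A second limit concerns where the compared peak lies. In 22, 16 and 15 domains of the Des-/- basal, Des+/+ swim and Des-/- swim lists the highest overlapping peak had its summit outside the domain, and the height then belonged to a neighbouring summit that the peak also covered. With both summits inside, 619 domains gave the same median ratio of 1.06, and 8 were at least 1.5-fold higher and 33 at least 1.5-fold lower. Their ratios ran from 0.465 to 1.84.

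**Figure D3:**
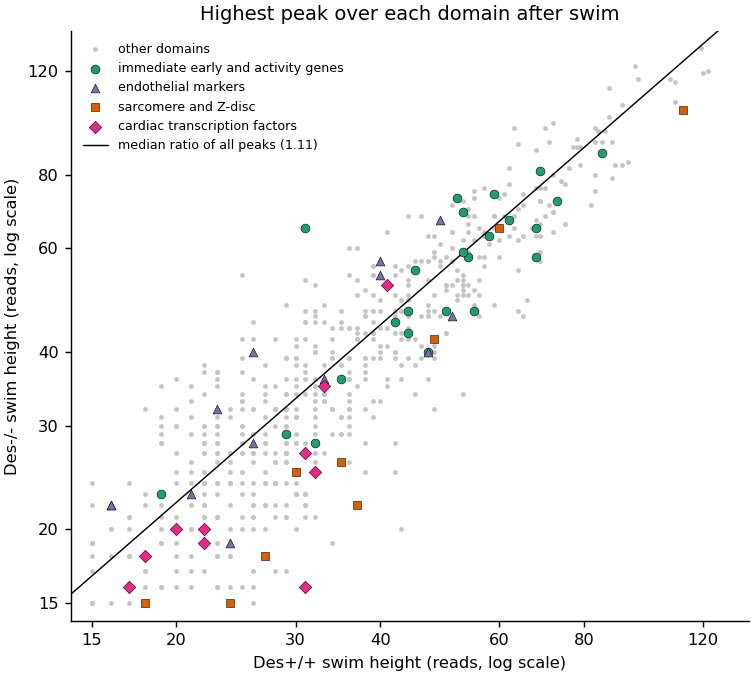
Highest H3K27Ac peak over each domain in Des+/+ swim and in Des-/- swim (reads, both axes on a log scale), for the 645 domains with a peak in both, with 4 gene lists marked. The line is the median ratio of all peaks, 1.11, and 8 of the 9 sarcomere domains lie at a ratio below 1 while 10 of the 13 endothelial domains lie above 1. The immediate early point farthest above the line is the exon domain assigned to Dusp1 as nearest gene, whose highest peak has its summit outside the domain.

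The smallest ratio was at Slco3a1, which encodes an anion transporter, in the intron domain whose summit is printed above. It was 34, 32, 43 and 20 reads high, a ratio of 0.465 (exact 95% interval 0.259 to 0.808). Des+/+ swim was the highest of the 4 and Des-/- swim the lowest. At the wider domain of Gata4, a founding transcription factor of the heart, the heights were 35, 29, 31 and 16 reads, a ratio of 0.516 (0.264 to 0.973). Here only Des-/- swim stood apart. Vegfa, the growth factor of vessels, had 34 reads in Des+/+ swim and 19 in Des-/- swim (0.559, or 0.245 with height over input), Gm8439 26 and 15 (0.577), Tmcc1 29 and 17 (0.586), and Myh6, the adult α-myosin heavy chain, 37 and 22 (0.595, interval 0.334 to 1.03). The intervals of the last 4 reached past 1.

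At the other end were Gpx4, a glutathione peroxidase, with 25 reads in Des+/+ swim and 54 in Des-/- swim (ratio 2.16), an exon domain assigned to Dusp1 with 31 and 65 (2.10), Ccdc85b with 19 and 35 (1.84), Cnn3, a calponin, with 20 and 36 (1.80), Wrap53 with 18 and 32 (1.78) and an S1pr1 domain with 26 and 45 (1.73). The Dusp1 label is that of the nearest gene. This domain has its Des+/+ basal summit at chr17:26464951, apart from the run of 2 Dusp1 domains at chr17:26502319-26508511. The Gpx4 summit in Des-/- swim lay 377 bp outside the domain, that of Dusp1 3077 bp and that of S1pr1 223 bp, so those 3 ratios compare different summits. Ccdc85b, with an interval of 1.03 to 3.41, Cnn3, with 1.01 to 3.28, and Wrap53, with 0.968 to 3.36, had both summits inside. All 3 intervals held 1.11, the median ratio over all peaks, and that of Wrap53 also reached below 1. With height over input the ratios of Cnn3 and Gpx4 were 0.440 and 0.635.

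The covered bases gave a like picture of gains and losses. Des-/- swim covered fewer bases than Des+/+ swim in 351 domains and more in 322. The cover was lower by at least 50 percentage points in 30 domains and higher by that much in 11. The most bases were lost at Schip1 (2993 to 0 bp), Gm8439 (3143 to 355 bp), Gata4 (3922 to 1240 bp), E130215H24Rik (2518 to 0 bp), Myl2 (2385 to 0 bp) and Rab11fip5 (2300 to 0 bp). The most were gained at Rapgef3 (705 to 2990 bp), a cAMP-activated exchange factor, Atf6b (0 to 2139 bp), Fam43a (1122 to 3107 bp), Cd300lg (440 to 2416 bp), which endothelial cells express, the G protein gene Gnai2 (1079 to 3051 bp) and Snrk (2554 to 4452 bp). Heights at these gains were 19 reads in both swim libraries at Rapgef3, 23 in Des+/+ and 28 in Des-/- at Fam43a, 19 and 28 at Cd300lg, 23 and 29 at Gnai2 and 50 and 52 at Snrk, and Atf6b had a peak of 18 reads in Des-/- swim only.

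The comparison of Des-/- swim with Des-/- basal asks what exercise changed in hearts without desmin, and it shares the Des-/- swim library with the comparison above. Over 653 domains the median ratio was 0.750, and over all 8766 peaks with a partner in both it was 0.747. Relative to the latter, 23 domains (3.52%) were at least 1.5-fold higher in Des-/- swim, against 5.03% of all peaks, and 13 (1.99%) at least 1.5-fold lower, against 3.54%. A peak of Des-/- basal was missing in Des-/- swim at 25 of 678 domains (3.69%), against 34.9% of all peaks. Set beside all peaks, domains moved with the general shift between the libraries, and few were past it. The 3322 other peaks between 32 and 67 reads high had a lower median ratio, 0.707. Of those with a partner in both, 1.90% were at least 1.5-fold higher and 4.28% at least 1.5-fold lower. Only 162 of the 3322 had a peak in Des-/- basal and none in Des-/- swim. Much of the contrast with all peaks thus went with height. As a description, since the rule used Des+/+ basal, the median ratio of Des+/+ swim to Des+/+ basal was 0.724 over domains and 0.750 over all peaks, and that of Des-/- basal to Des+/+ basal 1.02 and 1.07. Heights are reads as deposited, so a common factor for each library stays in all these ratios.

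The smallest ratio in this comparison, 0.136, was at the second domain of Zc3h4, and Klf7 (157 reads in Des-/- basal, 43 in Des-/- swim, 0.274), Klf4 (0.431) and Ppp1r2 (0.439) were also among the 6 smallest. All 4 rested on a summit outside the domain in 1 of the libraries. The other 2 did not. Cry2, a repressor of the circadian clock, had 45 reads in Des-/- basal and 16 in Des-/- swim (0.356, interval 0.188 to 0.641). Ttn, the giant spring protein of the sarcomere, had 37 and 15 (0.405, interval 0.207 to 0.757). The Ttn interval held the median over all peaks, 0.747, while that of Cry2 lay below it. Both domains were picked as extremes, which the intervals do not take into account. The 6 largest ratios were at Gpx4 (2.57), Midn (2.17), Id3 (1.58), Id1 (1.46), Gm15441 (1.44) and Dusp1 (1.44), and of these only that of Id1 had both summits inside. The Id1 domain, 2575 bp wide, had 26, 24, 27 and 35 reads, with an interval of 0.843 to 2.56 that reached below 1. With both summits inside, the ratios over 623 domains ran from 0.356 to 1.46.

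Desmin itself was read first as a check of the labels. Its promoter peak was listed in all 4 libraries, with 30, 46, 24 and 37 reads. The widest Des peak of Des+/+ basal had 1528 bp and was no domain. Acetylation at a promoter does not show whether the gene behind it was deleted, so this checks nothing. The labelled cell type was held against marker genes. Myh6 peaks were 46, 44, 37 and 22 reads high and those of the cardiac troponin gene Tnnt2 32, 28, 24 and 22, while the α-actinin gene Actn2 had 25, 29 and 24 reads and no peak in Des-/- swim. Of 51 sarcomere and Z-disc genes 47, 47, 40 and 28 had a peak in the 4 lists. The endothelial list was also well represented, with peaks at 29, 29, 26 and 25 of 32 genes. Of 30 fibroblast and pericyte genes 5, 11, 4 and 4 had one, and of 24 leukocyte genes 1, 1, 0 and 1. Of the fibroblast genes, Pdgfra had 16 and 15 reads in the basal lists of Des+/+ and Des-/- and Col1a1 had 17 in Des-/- basal only, while Dcn was in no list. The leukocyte and macrophage genes Ptprc, Cd68 and Csf1r were in no list either. Peaks at endothelial genes were thus present beside those of cardiomyocytes in every library.

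The domains were then read by 17 lists of genes with a known role. The immediate early and activity genes, which are switched on within minutes of a signal, held the most: 20 of the 28 genes with a Des+/+ basal peak (71.4%) had a domain, against 6.29% of all genes with a peak. Their 24 domains had a median height of 73.5 reads, against 45 over all domains. Shares for the other lists were 41.4% for endothelial markers (12 of 29 genes, 15 domains), 38.9% for the circadian clock (7 of 18, 9 domains), 28.6% for calcium handling (6 of 21, 7 domains), 26.9% for cardiac transcription factors (7 of 26, 10 domains), 26.1% for insulin, FOXO and growth signalling (6 of 23) and 23.4% for sarcomere and Z-disc genes (11 of 47, 12 domains). Natriuretic peptides and stress genes had domains at 3 of 14, intercalated disc genes at 4 of 28, Notch and Hippo genes at 3 of 25, regulators of fatty acid use at 3 of 33, glucose and phosphocreatine genes at 2 of 23, oxidative phosphorylation genes at 2 of 32, ion channels at 1 of 21 and cytosolic ribosomal proteins at 1 of 32. No fibroblast or leukocyte marker had one. The ribosomal protein genes are strongly transcribed in nearly every cell, and Rpl7 alone among them had a domain.

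**Figure D4:**
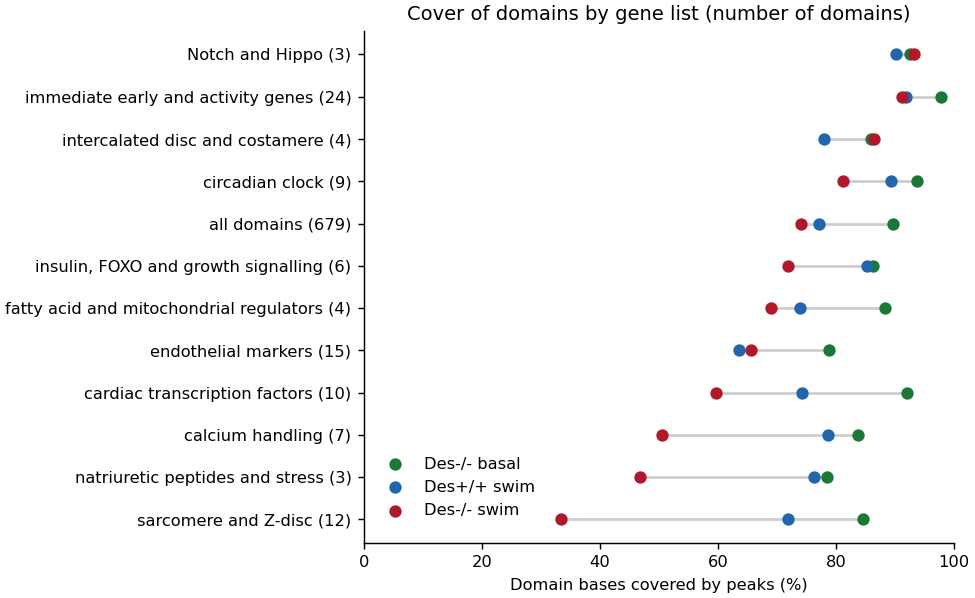
Share of domain bases covered by peaks (%) in Des-/- basal, Des+/+ swim and Des-/- swim for the domains of each gene list with at least 3 domains and for all domains, with the number of domains in brackets. Sarcomere domains drop from 84.5% in Des-/- basal to 71.8% in Des+/+ swim and 33.3% in Des-/- swim, while immediate early domains stay above 91%.

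The domains of immediate early genes were kept nearly whole. Their cover was 97.8, 91.9 and 91.2%, and none of the 24 lacked a peak. The Fos domain, over the AP-1 subunit gene whose promoter is printed above, was 3755 bp wide and 106, 90, 73 and 72 reads high. Both swim libraries lay below both basal ones. Jund, another AP-1 subunit, had 98, 92, 53 and 69 reads, and Egr1, a zinc finger factor, 93, 97, 62 and 67. The order of basal above swim held for each of them. Swim was below basal in most domains of any kind, at 602 of 667 with desmin and 593 of 653 without it. Jun had 85, 92, 45 and 55 reads, Junb 78, 80, 53 and 59, and Btg2, an antiproliferative cofactor of mRNA decay, 77, 75, 58 and 63. Fosb, whose domain was assigned to an intron, had 109, 92, 59 and 74. After swim 15 of the 24 domains were higher in Des-/- and 8 lower, and the median ratio was 1.07 against 1.06 over all domains. It was below 1, at 0.963, when divided by the median of all peaks, and 0.734 with height over input.

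The domains of sarcomere genes were not kept in the same way. In Des+/+ basal they were also lower, with a median height of 38.5 reads against 73.5 for immediate early domains and 45 over all domains. Higher peaks are found again more often, and this list was not set against domains of like height. The cover of the sarcomere domains was 84.5, 71.8 and 33.3%, where all domains together had 89.6, 77.1 and 74.0%. Des-/- swim covered fewer bases than Des+/+ swim in 11 of the 12 and more in 1. No peak was left in Des-/- swim at 3 of the 12, at Fhl2, Myl2 and the cardiac actin gene Actc1, against 25 of 679 overall. The Actc1 domain had 23, 27 and 27 reads in the other 3 libraries. Lmod2, which encodes the leiomodin that sets thin filament length, had the widest sarcomere domain, 5761 bp, with 41, 40, 30 and 25 reads, and its cover was 68.2, 49.8 and 9.98%. Only the part next to the start was left.

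Tpm1, the main tropomyosin, had 38, 36, 27 and 18 reads and a cover of 97.4, 66.6 and 22.8%. Ttn had 28, 37, 24 and 15 reads, and 78.5, 95 and 21.1% of its domain were covered. For both, Des-/- swim was the lowest library by height and by cover. Myh6 kept more of its width, with 90.5, 54.8 and 48.7%. Nexn, a Z-disc protein gene, had 26, 54, 35 and 26 reads, but its highest peak had its summit outside the domain in all 3 other libraries. The domain at Myom1 (104, 129, 112 and 103 reads) also holds the starts of the nonmuscle light chain genes Myl12a and Myl12b and so may not be acetylation of Myom1. Of the 9 sarcomere domains with a peak in both swim libraries 8 were lower in Des-/-, with a median ratio of 0.833 against 1.06 over all domains. The exception was the promoter domain of Pdlim5, which had 60 and 65 reads. With height over input the median ratio of the sarcomere domains was 0.5, against 0.678 over all domains. Of the listed sarcomere genes 40 had any peak in Des+/+ swim and 28 in Des-/- swim. The summed highest peak over the list was 1595, 1571, 1168 and 771 reads in the 4 libraries. Fewer genes with a peak were not particular to this list. The counts were 20 and 12 for glucose and phosphocreatine genes, 33 and 24 for regulators of fatty acid use and 26 and 19 for intercalated disc genes. Immediate early genes stayed at 27, and clock genes had 17 and 18. Of all Des+/+ basal peaks with a partner in Des+/+ swim 22.4% had none in Des-/- swim, a share of peaks and not of genes.

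**Figure D5:**
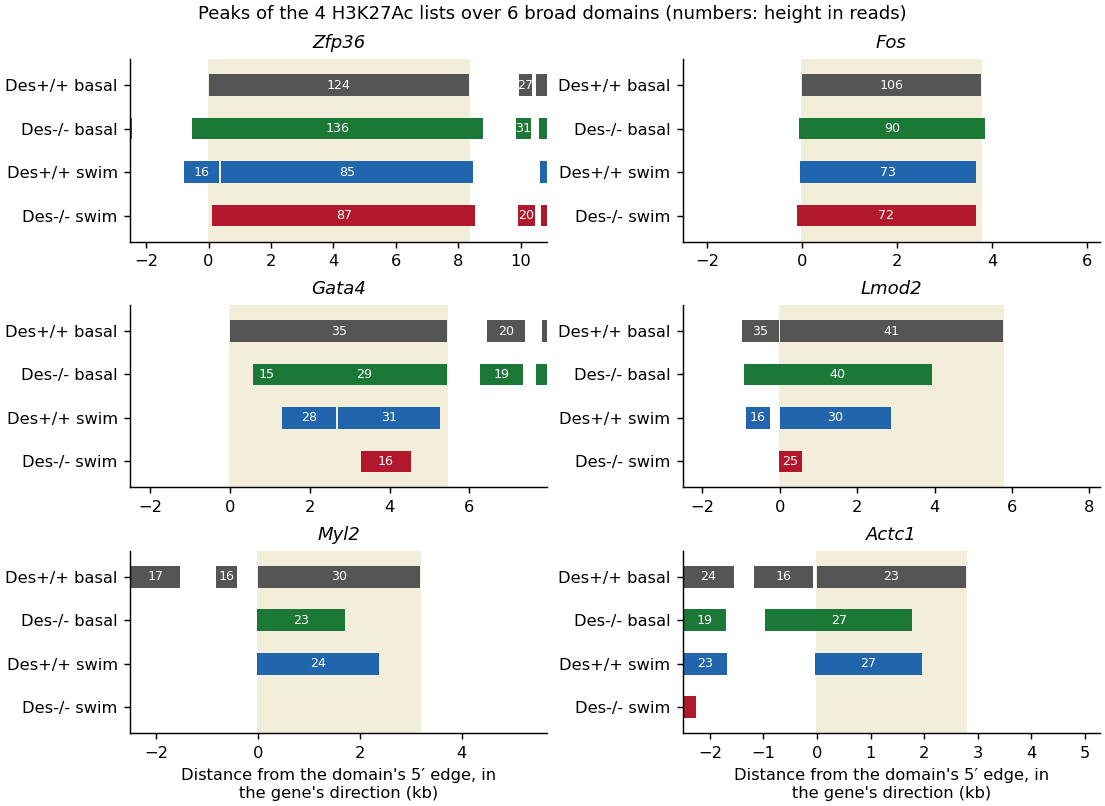
Peaks of the 4 H3K27Ac lists over 6 domains, drawn to scale as bars against the distance from the domain's 5′ edge in the direction of the gene (kb). The shaded area is the Des+/+ basal domain and the numbers are peak heights in reads: Zfp36 and Fos stay covered over almost their whole length, the Gata4 and Lmod2 domains shorten to 1 peak of 16 and 25 reads in Des-/- swim, and Myl2 and Actc1 have none there.

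Cardiac transcription factors had 10 domains at 7 genes. Cover was 92.0, 74.2 and 59.7%, and the median ratio of the swim libraries was 0.925, which became 1.16 with only peaks of at least 30 reads and 0.545 with height over input. Of the 10, 6 were lower in Des-/- swim, 2 higher and 2 equal. Mef2d, a MEF2 factor active in many tissues, had the highest domain of the list, with 74, 65, 41 and 52 reads, and kept 98.4% of its width in Des-/- swim. Mef2c, its relative with a role in heart development, had 50, 57, 31 and 27 reads. The wider Gata4 domain shortened to 22.8%, whereas the 3375 bp domain beside it had 27, 32, 20 and 20 reads and kept 81.0%. The 2 domains of 1 gene thus differed in how they were kept. Gata6, which shares roles with Gata4, had 40, 40, 32 and 25 reads and kept 96.6%. Both Meis1 domains (28, 28, 22 and 19 reads, and 38, 27, 22 and 20 reads) kept 24.7 and 29.8%, and Prdm16, a gene for a chromatin regulator, 12.4%.

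Calcium handling genes had 7 domains, covered at 83.7, 78.7 and 50.6%. Atp2a2, the calcium pump SERCA2 of the store, had a promoter domain of 66, 61, 57 and 56 reads and an intergenic domain of 39, 30, 24 and 20 reads. Pln, which encodes the inhibitor of that pump, had 27, 25, 26 and 21 reads and kept 43.2% of its width in Des-/- swim. The L-type channel gene Cacna1c had 26, 30, 28 and 30 reads and was fully covered in both swim libraries. Asph kept 26.2%, while Jph2 had no peak. Among stress genes the intergenic domain at Nppb, which encodes B-type natriuretic peptide, had 45, 37, 28 and 17 reads and a cover of 49.7, 56.5 and 23.0%.

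Endothelial genes had 15 domains at 12 genes, and by height they mostly ran the other way from the sarcomere list in the comparison after swim. Of the 13 with a peak in both swim libraries 10 were higher in Des-/- swim, and the median ratio was 1.35 against 1.06 over all domains. With height over input it was 0.902, below 1, against 0.678 over all domains. Erg, an ETS factor that keeps endothelial identity, had 96, 65, 40 and 57 reads. Its promoter domain was highest in Des+/+ basal and lowest in Des+/+ swim. The Fli1 promoter domain had 89, 100, 49 and 67 reads, Esam, a junction protein gene, 58, 49, 40 and 54, and Tal1, a blood and vessel factor, 50, 47, 23 and 32. Des+/+ swim was the lowest library for each of these. Egfl7, whose heights are given above with the widest domains, was lowest in Des-/- swim instead. The promoter domain of Pecam1, the adhesion molecule CD31, had 43, 31, 26 and 40 reads. Cover was 78.8, 63.6 and 65.6%, and Aplnr and Cdh5 had no peak in either swim list. Des-/- swim covered fewer bases than Des+/+ swim in 7 of the endothelial domains and more in 6, so cover showed no common direction. The summed highest peak over the 32 endothelial markers, domains or not, was 1144, 1047, 694 and 797 reads, against 125, 230, 83 and 100 for the fibroblast list. A change in the share of endothelial cells and a change of acetylation within them cannot be told apart here.

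Circadian clock genes had 9 domains with a median height of 86 reads, covered at 93.7, 89.3 and 81.2%. Per1, a clock gene that also responds to signals, had 100, 103, 71 and 91 reads over 5974 bp. Dbp, an output factor of the clock, had 100, 81, 36 and 54, and the nuclear receptor gene Nr1d1 86, 84, 45 and 57. In all 3 the swim libraries were lower than the basal ones, as in most domains, and Des+/+ swim was the lowest. Cry2 went the other way after swim, with 25 reads in Des+/+ and 16 in Des-/-. The hour at which hearts were taken is not given in the sources used here. Among insulin and FOXO genes the kinase gene Sgk1 had 79, 89, 64 and 90 reads, while Irs1, the insulin receptor substrate, had 22, 34, 26 and 17 and Vegfa 41, 31, 34 and 19. An intron domain of Notch1 had 43, 42, 22 and 30 reads, the Hippo effector gene Wwtr1 58, 73, 39 and 54, and Ccn1, a target of that pathway, 42, 44, 38 and 38. The 3 Notch and Hippo domains stayed covered at 92.5, 90.1 and 93.3%.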

How the data were processed

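Chromatin of cardiomyocytes isolated from 3-month-old mice was immunoprecipitated for H3K27Ac or lamin A/C, with an input sample for each, which gave 16 samples, 8 of them input. The authors aligned reads to mm10 with Bowtie2 2.4.4, handled them with SAMtools 1.13, called peaks with their own scripts on each immunoprecipitate against its input, and annotated them with ChIPseeker 1.36.0. The deposited tables hold 1 peak per line, with its height in the immunoprecipitate and in the input as read coverage (signal), the fold ratio of these, a p-value and a score from the authors' caller, of which only the positions, the coverage heights, the summit and the annotation were used. The nearest gene is the authors' assignment, and a promoter reaches 3 kb from a start. The study's methods state one approximate read number for all samples and no total for each library, so the depth of each is unknown and heights were not scaled to it.

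Peaks of the Des+/+ basal H3K27Ac list at least 2500 bp wide with an input height under 10 were taken as domains and joined to the other 3 lists by an overlap of 1 bp. The members, the gene lists and the comparisons were chosen with earlier results of these data known. Shares have Wilson 95% intervals and height ratios exact conditional 95% intervals. A ratio counted as past the fold at 1.5 or its inverse relative to the median over all Des+/+ basal peaks with a partner in both lists. With 1 library per group nothing was tested. Named are the genes of the 12 widest and the 12 highest domains, up to 10 by width of those without a peak in a list, the 6 largest and 6 smallest height ratios in both comparisons that the rule did not use, the 6 largest gains and losses of covered bases, genes with several domains, up to 8 domains per gene list by height and the 3 on each side of the width limit, except for some items that are not reported here. Some domains of the gene lists beyond these 8, and the X-linked and Notch and Hippo ones, were named after their values were seen. Alternatives changed the width limit, the input limit, the overlap, the height needed in the other lists, the joining of neighbours within 500 bp and the scaling, and, chosen after seeing the data, height over input with 1 read added to both and the position of the summit. Code was tested on simulated peaks. Python 3.11.15, pandas 2.3.3, numpy 2.4.6, scipy 1.17.1, pysam 0.24.0 and matplotlib 3.10.9 were used. Promoter windows came from RefSeq, and 445 of the nearest genes were matched there. The lamin A/C lists (4) entered only where they met a domain. The check of sequence and of gene starts used the GRCm38 assembly that the files use.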

Additional observations from a re-analysis of the deposited data

Results flagged for a closer look

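At 79 of the 644 domains with a peak in all 4 lists the swim to basal ratio of the highest peak lay on opposite sides of 1 in the 2 genotypes. At 4 of them the counting intervals of the 2 ratios also did not overlap, and only these are given here. With 1 library on each side the difference between the genotypes was not tested. The swim to basal ratio at the Klf7 promoter domain was 0.274 in Des-/- and 1.06 in Des+/+, at the exon domain assigned to Dusp1 as nearest gene 1.44 and 0.525, at the Malat1 promoter domain 0.71 and 1.64, and at the Nexn promoter domain 0.481 and 1.35. At each of the 4 the highest peak had its summit outside the domain in at least 1 library, so that the ratios compare different summits. The Klf7 peak of Des-/- basal, 157 reads high, was 5207 bp wide and had its summit 410 bp outside the domain.

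Lamin A/C peaks, which no comparison above uses, met few of the domains. The Malat1 promoter domain, over a long noncoding RNA of nuclear speckles, held one of 21 reads in Des-/- basal (input 7), 2 of 8 and 25 reads in Des+/+ swim (input 2 and 7) and one of 15 reads in Des-/- swim (input 5). Des+/+ swim also had one of 10 reads at Mir6935 (input 2) and one of 8 reads at Egr1 (input 2). Des-/- swim had one of 8 reads at the ubiquitin gene Ubb (input 1). The Des+/+ basal lamin A/C list, the smallest with 188 peaks, had none in a domain, against 831, 635 and 536 peaks in the lists of Des-/- basal, Des+/+ swim and Des-/- swim.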

How the results depend on the processing

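The number of domains followed the width limit, with 1428 at 2000 bp, 354 at 3000 bp and 1116 when neighbouring peaks were joined. At 2000 bp the shares with a peak in Des-/- basal, Des+/+ swim and Des-/- swim were 98.9, 95.5 and 93.3% and the median ratio of Des-/- swim to Des+/+ swim was 1.09, and at 3000 bp the share in Des-/- basal was 100%. With neighbours joined the shares after swim were 95.9% (Des+/+) and 93.1% (Des-/-), and 86.8, 70.4 and 66.3% of bases were covered. Where peaks had to cover at least 50% of the domain the shares were 97.8, 88.4 and 82.3%. With only peaks of at least 20 reads they were 97.6, 89.0 and 86.7%, with 84.8, 67.1 and 65.3% of bases covered, and at 30 reads 80.6, 57.3 and 61.3%, with 70.3, 44.0 and 47.9% covered and a median ratio of 1.08, so that the order of the swim libraries turned. Divided by the median over all peaks, the median ratio was 0.955 to Des+/+ swim and 1.004 to Des-/- basal. Height over input gave 0.678 and 0.459, and 0.440 for Cnn3 and 0.635 for Gpx4. The cause of these shifts was not tested. For the sarcomere domains the cover stayed higher in Des+/+ swim than in Des-/- swim at 20 reads (57.3 and 24.4%) and at 30 reads (32.9 and 17.7%). Limits on input height, and summits kept inside the domain, moved none of the counts, shares or medians over all domains past their intervals. No paired analysis was possible because each group had 1 H3K27Ac library. Without replicates or library totals, only differences larger than counting error can be seen, and a region without a peak may lie just under 15 reads.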
